A study of Homo sapiens with 9 samples.

Results

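The genes around AP001189.3, a long non-coding RNA gene on chromosome 11, were followed in A549 cells given a plasmid that expresses it. All genes of the count table whose lowest coordinate lies in a fixed window of chromosome 11 around it were taken, about 1 Mb to either side and from AP001922.2 at 75635883 to AP002812.4 at 77914990 (GRCh38, gene models equal to GENCODE 29). This gave 65 of 58735 genes. They comprised 21 protein-coding genes, 13 antisense RNAs, 9 processed pseudogenes, 8 lincRNAs including AP001189.3, and 14 genes of other types. A549 is an established human lung adenocarcinoma line, and the 9 RNA-seq libraries came from cells transfected with jetPRIME and 1 of 3 plasmids, with 3 libraries per group. The control group (PC3) received a plasmid that the labels call PC3, the second group (L996) a plasmid for LINC00996, another long non-coding RNA, and the third (RP11) a plasmid for AP001189.3. The control treatment is labelled PC3.1, PC3.2 or PC3.3 by library, although the study's text mentions only PC3.1, and PC3 here is a plasmid and not the prostate line of that name. The promoter of the plasmids, the inserted sequence and the time between transfection and harvest are not given in the sources used here. Nothing in the labels says that replicates came from separate cultures, so p-values measure only the spread between these libraries, which may be technical.

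Some long non-coding RNAs act in cis, on genes near the site where they are transcribed, and others act in trans, on genes elsewhere. A transcript made from a plasmid is not tethered to its own chromosomal locus, so the comparison asks whether genes of that locus differ when the RNA is supplied from elsewhere in the cell. LRRC32, the nearest tested protein-coding gene, encodes GARP, the surface protein that holds latent TGF-beta and is best known from regulatory T cells and platelets. TSKU encodes tsukushi, a secreted leucine-rich proteoglycan, and RSF1 a histone-binding subunit of a chromatin remodelling complex.

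AP001189.3 (ENSG00000254810) lies on the minus strand from 76654169 to 76656712 and has 2 exons. Exon 1 covers 76656449 to 76656712 (264 bases) and exon 2 covers 76654169 to 76654555 (387 bases). Its exons share no bases with those of any other annotated gene, so its counts are not mixed with those of a neighbour. The stretch of exon 2 that the study's primers amplify is printed here to show part of the RNA counted, from chr11:76654296-76654405 on the minus strand. It is 110 bases long, the sequence is that of the GENCODE 29 transcript, and the capitals mark the 2 primer sites.

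AP001189.3 amplicon: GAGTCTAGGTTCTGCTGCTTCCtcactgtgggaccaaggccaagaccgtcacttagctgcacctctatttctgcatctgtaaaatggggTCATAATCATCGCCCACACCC

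The antisense RNA AP001189.1 begins 344 bases from the start of AP001189.3 and points the other way. LRRC32 (chr11:76657524-76670747, minus strand) lies upstream of AP001189.3 on the same strand, with its 3' end 811 bases away. RefSeq (GRCh38.p14) gives a start named LRRC32-AS1 on the plus strand in this gap. The 250 bases before it (chr11:76656746-76656995, plus strand) are shown because they lie between AP001189.3 and LRRC32. The corresponding 250 bases before the RefSeq starts of TSKU (2 starts, chr11:76783106-76783355 and chr11:76783898-76784147, plus strand), CLNS1A (chr11:77637795-77638044, minus strand) and RSF1 (chr11:77820723-77820972, minus strand) are shown because these are the called neighbours with an entry under their own symbol in the RefSeq table. The GENCODE 29 gene models begin farther upstream, so the TSKU and RSF1 stretches lie inside those genes and the CLNS1A stretch overlaps its gene. Capitals mark GGGCGG, the core of the GC box, and CCAAT, each read on both strands.

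LRRC32-AS1 upstream: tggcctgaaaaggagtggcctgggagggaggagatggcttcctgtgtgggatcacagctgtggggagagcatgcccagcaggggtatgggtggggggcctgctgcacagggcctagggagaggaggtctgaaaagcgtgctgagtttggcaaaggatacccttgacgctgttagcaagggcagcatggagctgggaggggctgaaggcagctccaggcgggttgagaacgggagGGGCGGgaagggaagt

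TSKU upstream, first start: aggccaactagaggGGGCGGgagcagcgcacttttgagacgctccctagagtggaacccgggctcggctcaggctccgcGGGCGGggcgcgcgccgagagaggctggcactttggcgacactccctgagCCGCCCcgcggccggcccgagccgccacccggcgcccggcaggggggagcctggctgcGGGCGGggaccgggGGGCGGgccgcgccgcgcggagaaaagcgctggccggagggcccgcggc

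TSKU upstream, second start: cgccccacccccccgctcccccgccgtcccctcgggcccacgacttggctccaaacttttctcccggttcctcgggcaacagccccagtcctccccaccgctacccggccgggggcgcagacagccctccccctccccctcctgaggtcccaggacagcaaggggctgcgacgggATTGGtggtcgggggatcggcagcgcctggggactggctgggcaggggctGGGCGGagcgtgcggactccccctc

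CLNS1A upstream: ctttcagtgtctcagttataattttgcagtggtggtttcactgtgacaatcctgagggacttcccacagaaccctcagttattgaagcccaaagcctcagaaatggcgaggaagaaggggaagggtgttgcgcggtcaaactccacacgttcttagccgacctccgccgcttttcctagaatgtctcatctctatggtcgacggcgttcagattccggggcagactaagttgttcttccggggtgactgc

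RSF1 upstream: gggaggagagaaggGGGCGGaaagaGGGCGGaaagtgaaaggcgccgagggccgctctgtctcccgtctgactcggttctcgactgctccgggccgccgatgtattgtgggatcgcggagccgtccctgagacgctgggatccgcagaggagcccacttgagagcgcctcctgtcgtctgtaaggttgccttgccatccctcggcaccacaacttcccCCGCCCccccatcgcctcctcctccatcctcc

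The first TSKU stretch held 5 matches to GGGCGG, the second 1, the RSF1 stretch 3, the LRRC32-AS1 stretch 1 and the CLNS1A stretch 0, and no match overlapped another. CCAAT was found in the second TSKU stretch alone, 1 time, and TATAAA in none of the 5. Among 35097 RefSeq promoters cut to the same length, 42.6% held GGGCGG, 32.0% held CCAAT and 10.7% held TATAAA on either strand. GC content was 62.4% for LRRC32-AS1, 78.8% and 74.4% for TSKU, 51.6% for CLNS1A and 66.0% for RSF1, against a median of 58.0% over all of these promoters.

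The libraries held between 15272450 and 18125447 counts. Genes were tested by edgeR's quasi-likelihood test on the 6 libraries of each comparison, and a gene was called at a Benjamini-Hochberg adjusted p under 0.05 over all genes tested. Of the 65 genes, 23 passed the filter on low counts in at least 1 comparison, among them 17 of the 21 protein-coding genes. The other 42 had at most 11 counts in any library, and 13 of them had none in any library. Epithelial keratin KRT8 stood at 3880 to 6120 CPM (counts scaled to library size with TMM factors) and CDKN2A, which A549 lacks, had 0 counts in every library. The leukocyte markers PTPRC and CD3E and the fibroblast marker DCN had at most 4 counts, while CD14, PECAM1, CDH5, COL1A1 and COL3A1 lay between 2.11 and 22.5 CPM. The prostate markers KLK3 and FOLH1 had 0 and at most 3 counts. Replicate 1 of the LINC00996 group stood apart, with a chi-square per gene of 22.4 and 33.3 against its replicates 2 and 3, where every other pair of replicates gave 2.27 to 7.32. The log2 fold changes of the genes named and the counts of genes called in the locus are given with and without it, while counts by distance, in adjoining stretches, over chromosome 11 and of intervals are given with it.

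AP001189.3 counts were 0, 2 and 1 with the control plasmid, 0, 0 and 0 in the LINC00996 libraries, and 1660, 1931 and 2378 with its own plasmid. For the LINC00996 libraries, a limit of 3 counts is 0.166 to 0.196 CPM of the library totals and the exact 95% upper limit for 0 counts is 0.204 to 0.241 CPM, by counting error only. With its own plasmid the level was 122 ± 22.8 CPM (SD, n = 3), at least 686-fold higher than a floor of 3 counts per control library and at least 709-fold higher than that floor in the LINC00996 libraries. The RNA was thus near the limit of detection in A549 without its plasmid, and no group overlapped the AP001189.3 group. By FPKM, which also divides by gene length, AP001189.3 reached 149, 191 and 220 in the 3 libraries with its plasmid, which was 95.5, 167 and 189 times the FPKM of LRRC32 in the same library. Between 120 and 197 genes had a higher FPKM than AP001189.3 in these libraries. Plasmid transcripts and those of the chromosomal gene are counted together, and in bulk RNA fewer cells that took up plasmid and less RNA per cell cannot be told apart.

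Few neighbours of AP001189.3 passed the test between cells with its plasmid and control cells. Of the 22 neighbours tested, RSF1 alone was called, and it was lower (4.55%), where 19.8% of all 16023 genes tested were called (11.4% higher and 8.49% lower). With a GC content offset RSF1 was not called and CLNS1A was called in its place, higher by 0.23 (adjusted p = 0.0091 by edgeR). By distance between lowest coordinates, none of the 9 tested neighbours within 250 kb was called, nor any of the 5 between 250 and 500 kb or the 5 between 500 kb and 1 Mb. The median log2 fold change of the 22 neighbours was -0.03, against -0.001 for all genes tested, and 10 were above and 12 below 0. At an unadjusted p under 0.05 there were 3 of 22 neighbours, TSKU, AP003119.2 and RSF1, and 5125 of all 16023 genes.

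The comparisons that involve LINC00996 gave 3 and 6 called neighbours. With AP001189.3 against LINC00996, 3 of the 22 neighbours were called, all higher with AP001189.3 (13.6%), against 21.4% of 16095 genes (12.1% higher and 9.38% lower). Without LINC00996 replicate 1, 8 genes of the locus were called, AP001189.3 included, 5 higher and 3 lower, and 6828 of all genes. With LINC00996 against control, 6 of 22 were called (27.3%), 2 higher and 4 lower, against 22.3% of 16097 genes (10.7% higher and 11.6% lower), a share near that of all genes. This count was 1, 1 and 2 without control replicates 1, 2 and 3, where 2094, 1925 and 2162 of all genes were called against 3588 with every library. It was 7 without LINC00996 replicate 1, with 5481 of all genes. Called neighbours of these comparisons within 250 kb were 3 of 9 and 4 of 9. With all 6 libraries of each comparison, the called neighbours lay on the higher-coordinate side of AP001189.3, where 15 of the 22 tested neighbours are.

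Genes outside the window gave a local background. In AP001189.3 against control, 7 of 36 tested genes in the adjoining stretch of equal length at lower coordinates were called and 0 of 9 in that at higher coordinates, and 21.7% of 895 tested genes of chromosome 11. With AP001189.3 against LINC00996 these were 10 of 36, 1 of 9 and 22.1%, and with LINC00996 against control 8 of 36, 1 of 9 and 22.6% of 893. The share of neighbours called with AP001189.3 against control was below that of chromosome 11 and of all genes, and no test of that difference was made. With all 9 libraries in 1 fit, 437 of all genes and none of the 22 neighbours were called in AP001189.3 against control. That fit called 4218 of all genes and 5 genes of the locus, AP001189.3 included, in AP001189.3 against LINC00996. In LINC00996 against control it called 4659 and 8.

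**Figure D1:**
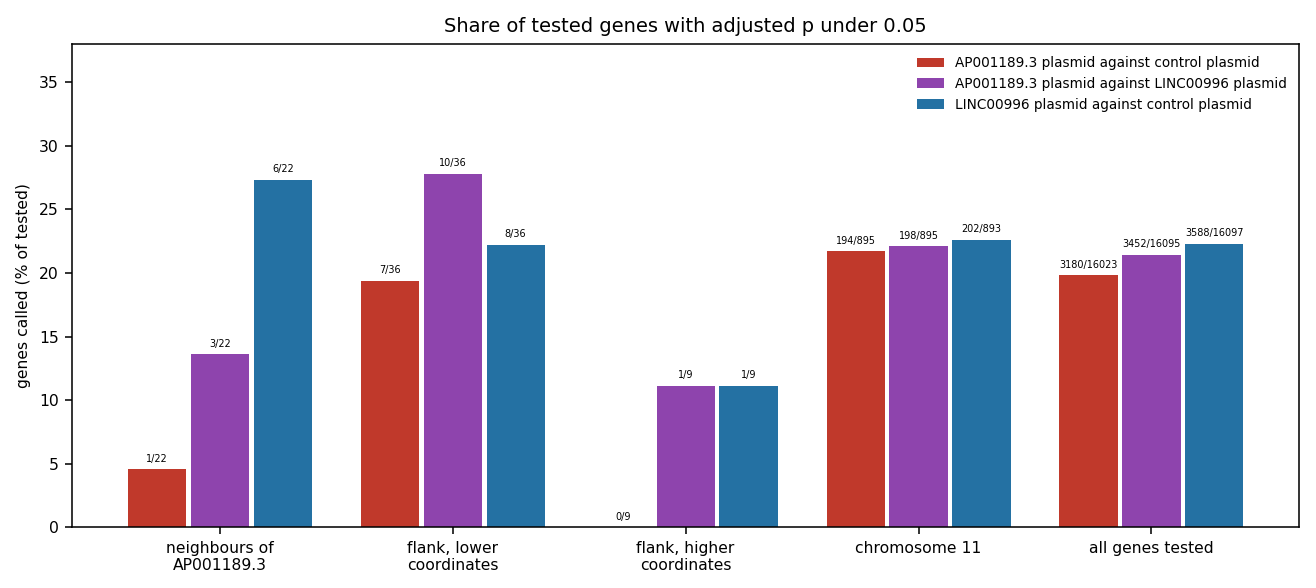
Share of tested genes with an adjusted p under 0.05 by edgeR (vertical axis, percent) among the neighbours of AP001189.3, the adjoining stretches at lower and higher coordinates, chromosome 11 and all genes, in 3 comparisons. Numbers above bars are genes called over genes tested, from 1 of 22 neighbours with AP001189.3 against control to 6 of 22 with LINC00996 against control.

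**Figure D2:**
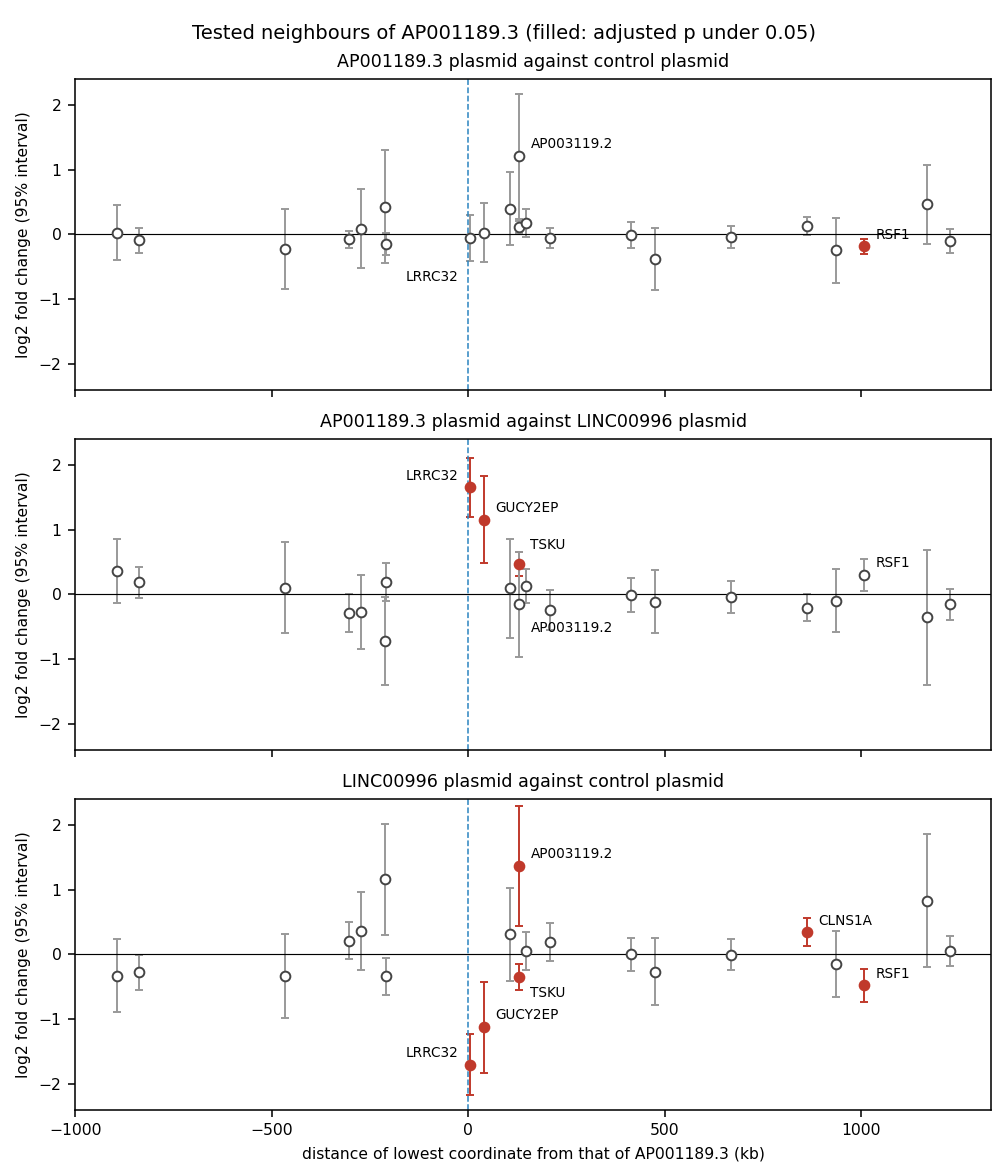
Log2 fold change with its 95% interval (vertical axis) for the 22 tested neighbours of AP001189.3 against the distance of their lowest coordinate from that of AP001189.3 in kb (horizontal axis; dashed line at AP001189.3, which is left out), in 3 comparisons. Filled points have an adjusted p under 0.05 by edgeR: RSF1 alone in the top panel, 3 genes on the higher-coordinate side in the middle panel and 6 in the bottom panel.

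LRRC32, whose 3' end is 811 bases from AP001189.3, was not called with the AP001189.3 plasmid. LRRC32 counts were 122, 82 and 101 with the control plasmid, 119, 79 and 86 with the AP001189.3 plasmid, and 33, 30 and 34 with the LINC00996 plasmid. The AP001189.3 and control groups overlapped, at 5.79 ± 1.08 and 6.02 ± 1.05 CPM (SD, n = 3), and all 3 LINC00996 libraries lay below both, at 1.85 ± 0.0523 CPM. The log2 fold change with AP001189.3 against control was -0.06 (standard error 0.18, 95% interval -0.42 to 0.31, adjusted p = 0.864 by edgeR). LRRC32 shares 87 of its exon bases (2.0%) with the opposite-strand AP001189.1. The methods name no step that marks the strand, so reads there cannot be assigned to either gene. AP001189.1 itself had at most 2 counts in any library.

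LRRC32 was instead the neighbour with the largest change with LINC00996. It fell by 1.70 on the log2 scale against control (standard error 0.21, a 3.26-fold lower level, adjusted p = 0.000213 by edgeR). Compared directly, the AP001189.3 group was 3.14-fold higher than the LINC00996 group (log2 fold change 1.65, standard error 0.21, adjusted p = 0.000217 by edgeR). These comparisons share libraries and are not separate evidence. Without LINC00996 replicate 1 the values were -1.69 and 1.63, and LRRC32 was called under each of 15 alternatives in both comparisons.

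GUCY2EP, a transcribed pseudogene of a guanylate cyclase (chr11:76694041-76719801, minus strand), came next in order from AP001189.3 among the genes tested. Its counts were 50, 58 and 48 in the control group, 59, 49 and 46 with AP001189.3 and 40, 15 and 20 with LINC00996. The first 2 groups overlapped, while all LINC00996 libraries lay below them. The log2 fold change was 0.03 with AP001189.3 against control (95% interval -0.43 to 0.48) and -1.12 with LINC00996 against control (standard error 0.32, adjusted p = 0.0267 by edgeR). The direct comparison of the 2 long non-coding RNA groups gave 1.16 (standard error 0.31, adjusted p = 0.0205 by edgeR), a call lost without LINC00996 replicate 2 or 3 or AP001189.3 replicate 1 or 2 (adjusted p from 0.0532 to 0.0964). The call against control was lost when any of the 5 libraries other than LINC00996 replicate 1 was left out, with adjusted p between 0.059 and 0.103, and without that replicate the log2 fold change was -1.60 against control and 1.62 between the 2 groups.

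TSKU (chr11:76782251-76798154, plus strand) was the most strongly expressed of the tested genes in control cells, at 105 ± 2.76 FPKM (SD, n = 3), with CLNS1A next at 12.5 FPKM. TSKU stood at 449, 431 and 431 CPM in the control libraries, at 463, 472 and 481 CPM with AP001189.3 and at 381, 323 and 326 CPM with LINC00996. The groups did not overlap, with AP001189.3 highest and LINC00996 lowest. Against control, TSKU with AP001189.3 had a log2 fold change of 0.11 (standard error 0.05, 95% interval 0.01 to 0.21), which missed the threshold (adjusted p = 0.104 by edgeR) and came to -0.01 after an offset for GC content. With LINC00996 it fell by 0.35 (standard error 0.09, adjusted p = 0.0167 by edgeR), and between the 2 long non-coding RNA groups it differed by 0.47 (standard error 0.09, adjusted p = 0.00289 by edgeR). Without LINC00996 replicate 1 these became -0.43 and 0.54. The fall against control was not called when control replicate 1, 2 or 3 or LINC00996 replicate 2 was left out, with adjusted p between 0.0548 and 0.0951.

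AP003119.2 is an antisense RNA inside the TSKU gene (chr11:76782581-76783062, minus strand), with no exon base in common with it. Its counts were 6, 6 and 7 with the control plasmid, 19, 13 and 11 with AP001189.3 and 24, 11 and 17 with LINC00996. The control libraries lay below all others. With AP001189.3 against control the log2 fold change was 1.21 (95% interval 0.24 to 2.17), which missed the threshold (adjusted p = 0.071 by edgeR). With LINC00996 it was 1.37 (adjusted p = 0.037 by edgeR), a call lost with DESeq2 (adjusted p = 0.126), with no filter on low counts (0.0675), and without any 1 library other than LINC00996 replicate 2 (0.0664 to 0.135). Without LINC00996 replicate 1 the log2 fold change was 1.10. Without strand, unspliced TSKU reads across this stretch and reads of the antisense RNA cannot be told apart.

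**Figure D3:**
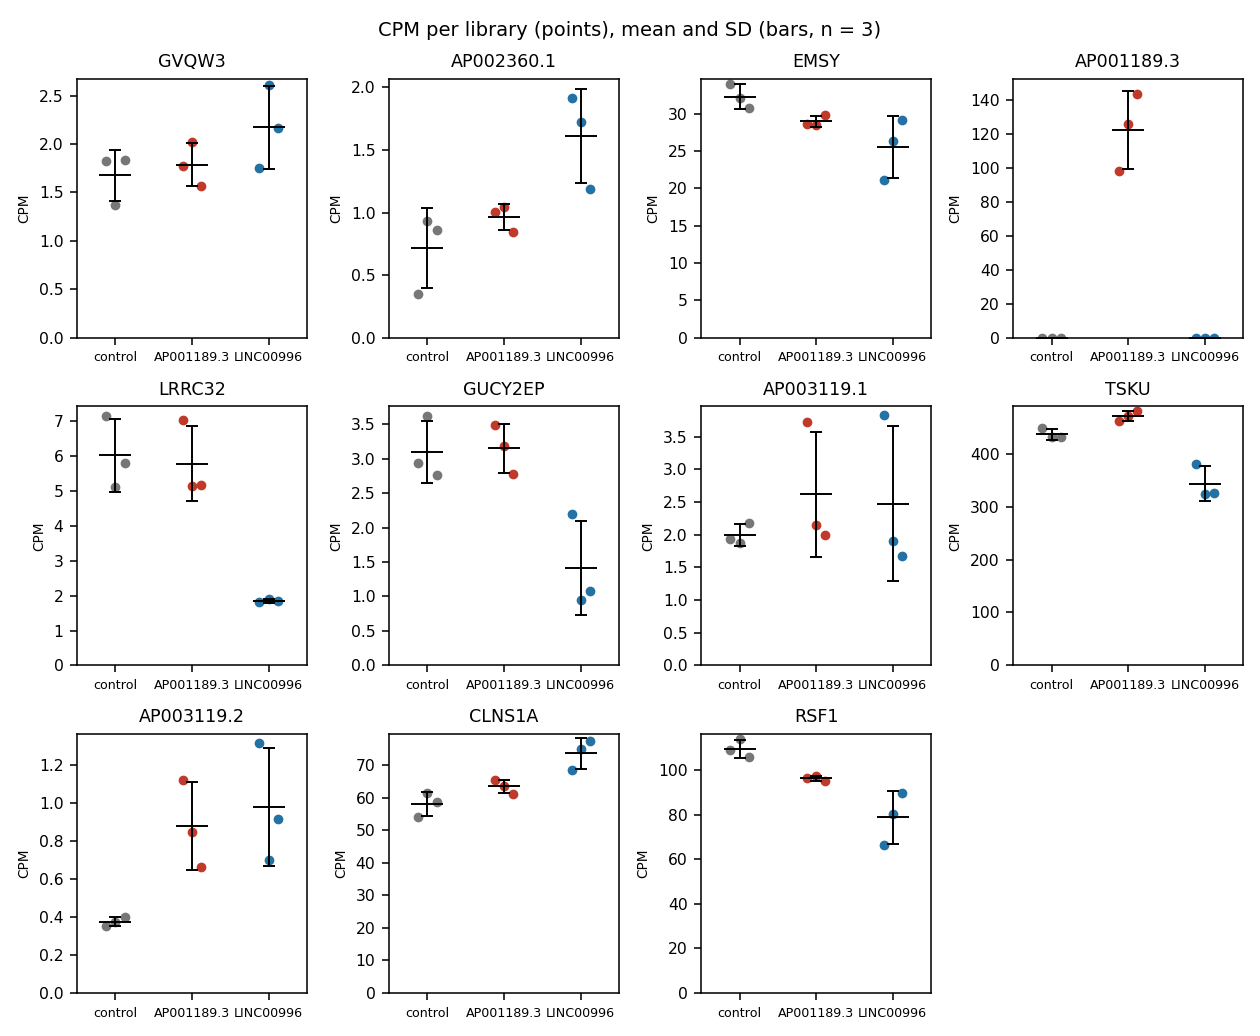
CPM (vertical axis, from 0) in each of the 9 libraries, as points, for AP001189.3, its 3 nearest tested neighbours on either side and every gene of the locus called in any comparison. Bars show the mean and SD of 3 libraries per plasmid group (horizontal axis). LRRC32 is near 6 CPM with the control and AP001189.3 plasmids and near 1.85 CPM with LINC00996.

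RSF1 (chr11:77659996-77821017, minus strand) lies near the far end of the locus, with its lowest coordinate 1005.8 kb from that of AP001189.3. Its counts were 1855, 1828 and 1844 in the control libraries, 1634, 1496 and 1574 with AP001189.3 and 1212, 1259 and 1661 with LINC00996, that is 109, 114 and 106, then 96.6, 97.3 and 94.9, then 66.4, 80.2 and 89.8 CPM. Control libraries were highest and LINC00996 libraries lowest, with no overlap between groups. RSF1 fell by 0.19 with AP001189.3 (standard error 0.06, 95% interval -0.30 to -0.07, adjusted p = 0.0192 by edgeR). This call was lost when control replicate 2, AP001189.3 replicate 2 or AP001189.3 replicate 3 was left out (adjusted p = 0.119, 0.0671 and 0.0808 by edgeR), with all 9 libraries in 1 fit (0.306) and with a GC content offset (-0.07, adjusted p = 0.41). With LINC00996 it fell by 0.48 (standard error 0.12, adjusted p = 0.0108 by edgeR), and by 0.37 without LINC00996 replicate 1. That call was lost without control replicate 1 or 2 (adjusted p = 0.0512 and 0.0682 by edgeR). RSF1 shares 323 exon bases (2.1%) with the same-strand AP000580.1. It is transcribed away from AAMDC, with starts 92 bases apart, and AAMDC was called in none of the 3 comparisons.

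CLNS1A (chr11:77514936-77637805, minus strand), a chaperone of spliceosomal snRNP assembly, had 54.0, 61.3 and 58.8 CPM in the control libraries, 65.4, 63.7 and 61.3 CPM with AP001189.3 and 68.5, 74.9 and 77.6 CPM with LINC00996. The LINC00996 libraries lay above all others, and the first 2 groups overlapped by a small margin. It rose with LINC00996 by 0.34 (standard error 0.10, adjusted p = 0.0294 by edgeR), while the value with AP001189.3 was 0.13 (95% interval -0.01 to 0.27, adjusted p = 0.176 by edgeR). The rise was 0.39 without LINC00996 replicate 1 and was not called when any other library was left out (adjusted p from 0.0713 to 0.157). One other annotated gene carries a CLNS1A-derived name, and whether reads are shared with it was not tested. Between the 2 long non-coding RNA groups, CLNS1A and RSF1 had log2 fold changes of -0.21 and 0.30 (adjusted p = 0.143 and 0.0873 by edgeR), and without LINC00996 replicate 1 of -0.26 and 0.18, then both called (adjusted p = 0.00136 and 0.0196).

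The 3 nearest tested genes at lower coordinates were not called in any of the 3 comparisons as fitted. EMSY, a transcriptional repressor that binds BRCA2, had log2 fold changes of -0.16 and -0.34 with AP001189.3 and LINC00996 against control, with adjusted p of 0.193 and 0.0862 by edgeR. Its levels were 34.0, 32.1 and 30.7 CPM in the control libraries, 28.6, 28.4 and 29.8 CPM with AP001189.3 and 21.1, 26.3 and 29.2 CPM with LINC00996, so the control libraries were above all others. The lincRNA AP002360.1, which starts 267 bases from EMSY on the other strand, had 6, 15 and 15 counts with the control plasmid, 17, 16 and 14 with AP001189.3 and 35, 27 and 22 with LINC00996. Its AP001189.3 and control libraries overlapped (log2 fold change 0.43, 95% interval -0.44 to 1.30), and its LINC00996 libraries lay above both (1.16, adjusted p = 0.055 by edgeR). With LINC00996 against control, AP002360.1 was called in 7 of 14 alternatives and EMSY in 4 of 15. GVQW3 had 0.09 with AP001189.3 and 0.36 with LINC00996 against control. Without LINC00996 replicate 1 the LINC00996 values were -0.22 for EMSY, 1.01 for AP002360.1 and 0.50 for GVQW3, none of them called. On the other side, the antisense RNA AP003119.1 had 0.40 (95% interval -0.17 to 0.96) with AP001189.3, where replicate 1 of that group held 63 counts and its other 2 libraries 33 each. With LINC00996 against control AP003119.1 had 0.31 (95% interval -0.40 to 1.02), with 70 counts in LINC00996 replicate 1 and 30 and 31 in the others. That value ran from -0.16 to 0.53 when each library was left out. Between the 2 long non-coding RNA groups it was 0.09, and 0.56 without LINC00996 replicate 1.

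The other tested genes of the locus were not called in the 3 comparisons on all 6 libraries each, though some were under alternatives. Among regulators of transcription and RNA processing, THAP12 and INTS4 had log2 fold changes with AP001189.3 of -0.07 and -0.11. PAK1, a kinase that acts downstream of Rac and Cdc42, had -0.05, UVRAG, an autophagy and endosome protein, had -0.10, and WNT11, a Wnt ligand, had -0.23. The enzymes DGAT2, which makes triglyceride, and ACER3, a ceramidase, had 0.03 and -0.06, and the water channel AQP11 had -0.25. MYO7A, a myosin of sensory hair cells, and the protease CAPN5 had -0.38 and -0.01. AP003119.3, next to TSKU on the same strand, had 0.17, and AAMDC had 0.47, with 107 counts in LINC00996 replicate 1 and 23 to 53 in every other library. THAP12, INTS4 and DGAT2 have other annotated genes with names derived from theirs, 9, 2 and 1 in number. Whether reads are shared with those genes was not tested. PAK1 shares 934 exon bases with the opposite-strand AP003680.1 and INTS4 shares 241 with AAMDC, which cannot be separated without strand.

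The absence of calls has a measurable precision. In AP001189.3 against control, the half-width of the 95% interval ran from 0.10 to 0.97 on the log2 scale over the 22 neighbours. The interval lay within a 1.41-fold change in either direction for 14 of them and within a 2-fold change for 19. The intervals of AP003119.2, AP002360.1 and AAMDC reached past 2-fold, so a change of that size was within the error for these 3 genes of low counts. The 4 protein-coding genes that were never tested, MOGAT2, B3GNT6, OMP and GDPD4, had 0 or 1 counts in each library with the AP001189.3 plasmid. No untested gene of the locus had more than 6 counts there, so no large rise was seen among them. A fall or a small rise cannot be read at such counts. AP001189.1, AP001189.4 and AP001189.5, the other RNAs of the same clone, had at most 4 counts in every library, and AP001189.2 and AP001189.6 had none.

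Levels per length ranged widely over the locus. In the control group, TSKU at 105 FPKM was followed by CLNS1A (12.5), THAP12 (7.78), RSF1 (6.91), ACER3 (5.81) and PAK1 (5.14). LRRC32 stood at 1.34 ± 0.236 FPKM and GUCY2EP at 1.18 ± 0.171 FPKM (SD, n = 3), 2 neighbours in the order whose difference is within their spread. GVQW3 was lowest of the tested neighbours, at 0.152 ± 0.0242 FPKM.

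**Figure D4:**
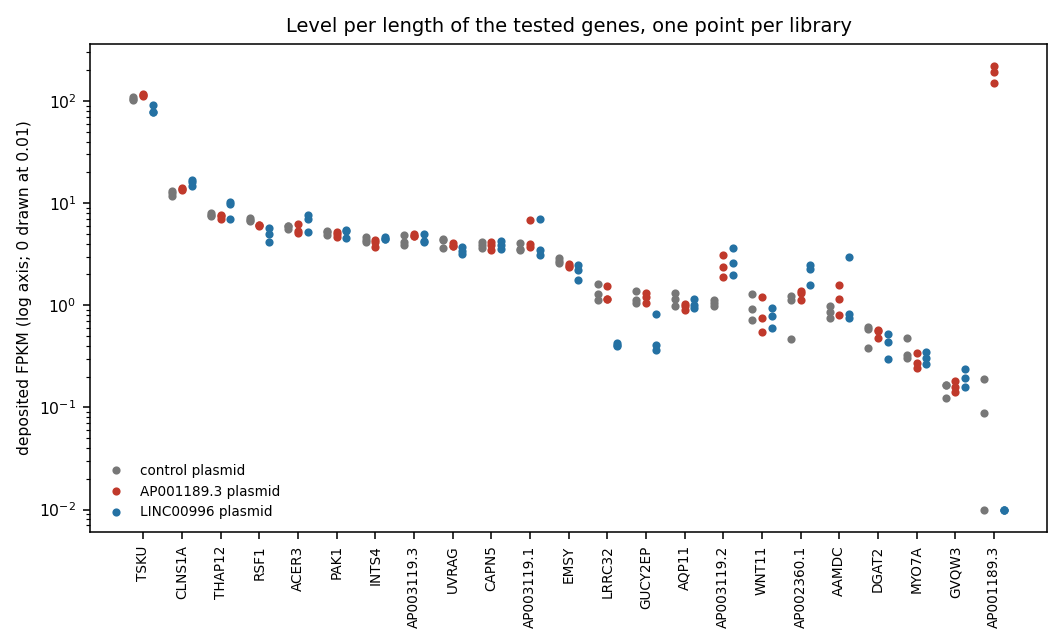
Deposited FPKM (vertical axis, log scale, values of 0 drawn at 0.01) of the 23 tested genes of the locus (horizontal axis, in order of the control group mean), with 1 point per library and colour by plasmid. AP001189.3 goes from at or near 0 to above TSKU with its own plasmid, and LRRC32 is lower with LINC00996.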

How the data were processed

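RNA-seq of A549 cells in 3 plasmid groups of 3 libraries was analysed. The authors deposited raw counts per gene and FPKM values per library. Per the submitters' processing notes, reads were processed with HISAT2 2.0.5 and featureCounts 1.5.0-p3, and the notes also name DESeq2 1.20.0 and edgeR 3.22.5. FPKM values were deposited per library and used only to show levels per length. Comparisons were made on the counts, in R 4.3.3 with edgeR 4.0.16 (filterByExpr, TMM, robust quasi-likelihood fit on the 6 libraries of each comparison), with Benjamini-Hochberg adjustment over all genes tested. Standard errors were back-calculated from the log2 fold change and the quasi-likelihood F statistic, and the 95% intervals come from these. Floors and intervals of single counts cover counting error only. All 65 genes have the coordinates of GENCODE 29 (GRCh38). Replicates were numbered in the titles. The genes named are those called in any comparison and the 3 nearest tested genes on either side, with the other tested genes given by value. The members and lists were chosen with earlier results of these data known. Alternatives were DESeq2 1.42.0, other scalings and filters, all 9 libraries in 1 fit, a replicate term, thinning, leaving out each library, a fold threshold and, chosen after seeing the data, a GC content offset. The GENCODE annotation, RefSeq promoters and the study's primer sequences gave the positions and sequences printed. Some marker genes that were checked are not reported here.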

Additional observations from a re-analysis of the deposited data

How the results depend on the processing

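With AP001189.3 against control, 2 genes of the locus were called, RSF1 and AP001189.3 itself, which the plasmid supplies and which passed the filter on low counts only through its own group. It is included in the counts of both of its comparisons. The count was 1 with at least 10 counts in every library, where AP001189.3 was not tested, with all 9 libraries in 1 fit, with the added fold threshold (log2 of 1 or more) and for genes within 500 kb, and 1 to 2 when each library was left out. With AP001189.3 against LINC00996, 4 were called, 7 with the GC content offset and 3 to 8 when each library was left out, the 8 without LINC00996 replicate 1. With LINC00996 against control, 6 were called, 11 with the GC content offset (5 higher, 6 lower), 3 with the fold threshold, and 1 to 7 when each library was left out: 1, 1 and 2 without control replicates 1, 2 and 3, 3 without LINC00996 replicate 2, and 7 without LINC00996 replicate 1. The median log2 fold change of that comparison, -0.001, was -0.072 with at least 10 counts in every library and -0.132 to 0.012 when each library was left out. The cause of these shifts was not tested. Of the genes named, LRRC32 was called under all 15 alternatives in both LINC00996 comparisons and under none with AP001189.3 against control (-0.22 to 0.09). RSF1 with AP001189.3 was called in 10 of 15 (-0.21 to -0.07), and CLNS1A in 1 of 15, the GC content offset (0.23, adjusted p = 0.0091 by edgeR).

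Over all genes, counts called moved by more than 1.5 times. With AP001189.3 against control, 3180 became 437 with all 9 libraries in 1 fit and 1914 to 3598 when each library was left out. With AP001189.3 against LINC00996, 3452 became 5792 with the GC content offset and 1840 to 6828 when each library was left out. With LINC00996 against control, 3588 became 5975 with the GC content offset and 1925 to 5481 when each library was left out. Same-numbered replicates are not stated to share a culture, and their deviations correlated by -0.019 to 0.148, so the numbers were not taken to pair the libraries. A fit with the replicate block called 2, 4 and 8 genes of the locus and 3466, 3772 and 4500 of all genes. In all 3 comparisons, replicates 1 and 3 of the first group named correlated best with the same number in the other group. Replicate 2 correlated best with replicate 3.

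With 3 libraries per group, intervals reached past a 2-fold change for 3 of the 22 neighbours in AP001189.3 against control, 4 in AP001189.3 against LINC00996 and 6 in LINC00996 against control.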
